A study of Mus musculus with 2 samples.

Results

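The genes described here are 48 ligands, receptors, antagonists, SMAD proteins and ID targets of transforming growth factor beta (TGF-beta) and bone morphogenetic protein (BMP) signalling. They were taken by name from a list and found by Entrez gene identifier among the 16174 genes that the 2 libraries list together; 47 of the 48 were listed in at least 1 library. RNA was sequenced from brown adipose tissue, the heat-producing fat, of mice on a C57BL/6 background aged 45 weeks and fed chow throughout; the series title gives the mice as female. The D3BKO library came from D3Bfl/fl-UCP1-Cre+/- mice, which carry floxed D3B alleles and a Cre transgene driven by the Ucp1 promoter. The D3BWT library came from D3Bfl/fl mice, so the floxed alleles were common to both and the control label names no Cre. Ucp1 is a gene of brown adipocytes, so by design the Cre does not act in the vessel, stromal and immune cells of the tissue. The labels do not say how many mice a library represents.

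There was 1 library per genotype. No test between genotypes was therefore possible, no p-value is given, and the differences below have no replicate check. The D3BKO library held 10068359 expected counts and the D3BWT library 9666528, on lane 1 and lane 2, so lane, Cre and genotype cannot be told apart. D3B is read here as Dnmt3b, a DNA methyltransferase. Dnmt3b had 7 counts (0.18 FPKM) in the D3BKO library and 15 counts (0.39 FPKM) in the D3BWT library, and the ratio of 0.462 had a counting interval of 0.155 to 1.17 that included 1. A gene-level value holds exons outside the floxed part and RNA of cells without Cre, so it checks the labels only weakly. Brown adipocyte identity was plain in both libraries: Ucp1 was at 4271 FPKM in D3BKO and 4987 FPKM in D3BWT. All 8 adipocyte markers examined were detected, with a summed level of 32134 FPKM in D3BKO and 37423 FPKM in D3BWT. Fabp4 alone gave 18614 FPKM of that sum in D3BKO and 20164 FPKM in D3BWT. The counting interval lay wholly below 1 for 7 of the 8, against 22.4% of all genes that reached 1 FPKM in either library. Abundant genes have narrow intervals, which can exclude 1 at a small difference, as for Plin1 with a ratio of 0.972 (0.946 to 0.998). By the call defined below, 1 of the 8 was lower, which is 12.5% against 3.41% of all assessed genes. It was Dio2, with the lowest ratio, 0.62 (0.57 to 0.673). These markers were chosen with earlier results of these data known.

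TGF-beta family ligands are secreted as dimers that join a type II and a type I receptor kinase. The type I receptor then phosphorylates SMAD2 and SMAD3 (for TGF-beta and activins) or SMAD1, SMAD5 and SMAD9 (for BMPs), which enter the nucleus with SMAD4. SMAD6 and SMAD7 act as inhibitors, and ID genes are classic BMP targets. In adipose tissue BMPs are known to promote brown adipocyte formation, whereas TGF-beta is known for driving matrix production and for restraining adipocyte formation.

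FPKM (fragments per kilobase of transcript, scaled to library size) is a level per length, so it may be compared between genes. A gene was assessed when it reached 1 FPKM in either library, which 36 of the 48 genes did. It was called higher or lower when the ratio of FPKM + 1, D3BKO to D3BWT, was past 1.5-fold and the 95% counting interval of the ratio excluded 1. The interval covers counting error only and treats reads as independent molecules, although they were amplified by PCR. Of the 36 assessed genes, 3 were called higher, which is 8.33% of them against 4.35% of the 11746 genes assessed in all. A further 2 were called lower, which is 5.56% against 3.41% of all. Counts of 3 and 2 among 36 genes are too small to tell from those shares. With both libraries set to the same FPKM total, 674 of all genes were higher and 298 lower, against 511 and 401 as deposited, and the same 5 genes of the group were called. The 3 higher genes were the antagonist-like Fstl1 and the ligands Gdf10 and Inhbb, and the 2 lower genes were Id1 and Id2. The other 31 assessed genes, among them all receptors, all SMADs and all latent TGF-beta binding proteins, were not called. The median log2 ratio of the 36 genes was -0.03, and that of all assessed genes was also -0.03. At a stricter limit of 2-fold on this scale none of the 36 genes was called in either direction, against 0.902% of all assessed genes higher and 0.673% lower. The counting interval excluded 1 for 15 of the 36 genes and for 40.5% of all assessed genes.

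**Figure D1:**
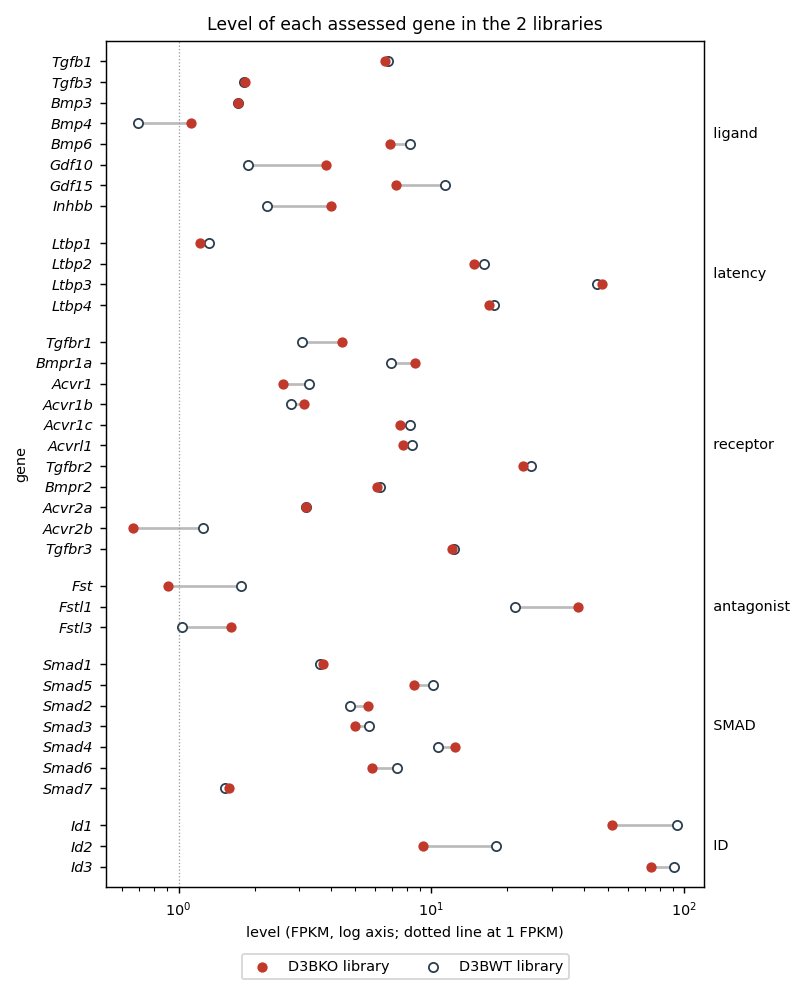
Level in FPKM (log axis) of the 36 genes that reached 1 FPKM in either library, ordered by role. Filled points are the D3BKO library, open points the D3BWT library, 1 library each; the points of most receptors and SMADs lie close together, and those of Id1, Id2, Fstl1, Gdf10 and Inhbb lie apart.

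Of the 3 ID genes assessed, Id1 and Id2 were called lower in the D3BKO library and Id3 was not called. ID proteins are helix-loop-helix proteins without a DNA-binding region, and they hold E-box-binding factors away from DNA. Id1 (Entrez 15901) was at 51.7 FPKM (446 counts) in D3BKO and 93.8 FPKM (778 counts) in D3BWT. The ratio was 0.551 with an interval of 0.489 to 0.619. Id2 (15902) was at 9.24 FPKM (115 counts) in D3BKO and 17.98 FPKM (215 counts) in D3BWT, a ratio of 0.514 (0.406 to 0.647). In both genes the whole interval lay below the 1.5-fold limit. Id3 (15903) was at 73.8 FPKM (676 counts) in D3BKO and 91.1 FPKM (802 counts) in D3BWT, a ratio of 0.81 (0.729 to 0.898) that did not reach the call. The interval of Id3 overlapped neither that of Id1 nor that of Id2. Summed over the 3 genes the level was 134.8 FPKM in D3BKO and 202.9 FPKM in D3BWT. Id3 made up 54.8% of that sum in D3BKO and 44.9% in D3BWT, while Id1 made up 38.4% in D3BKO and 46.2% in D3BWT. Id1 was the first of the 48 genes by level in D3BWT, and Id3 the first in D3BKO.

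Other genes moved with the ID genes. Of 12 immediate early genes, which are induced within minutes by many stimuli, 8 were called lower (66.7%) and none higher. Over all assessed genes the shares were 3.41% lower and 4.35% higher. The summed level of the 12 genes was 140 FPKM in D3BKO and 293 FPKM in D3BWT. Egr1 in that list was at 3.91 FPKM in D3BKO and 16.3 FPKM in D3BWT. Of 8 endothelial markers 3 were called lower, which is 37.5% against 3.41% of all assessed genes. The summed level of the 8 markers was 134 FPKM in D3BKO and 176 FPKM in D3BWT. Those 3 were Kdr, Tie1 and Emcn, with ratios of 0.639, 0.638 and 0.558. Pecam1, another endothelial marker, was at 39.3 FPKM in D3BKO and 41.9 FPKM in D3BWT. Both lists were chosen with earlier results of these data known, so their shares describe the chosen genes and are no independent check. The part of these genes, of their cells or of tissue handling in the lower ID levels was not tested. In bulk tissue fewer cells of a type and less RNA per cell cannot be told apart. ID transcripts are short, with a median of 964 bases against 2682 over all assessed genes. Across all genes in the same length class as Id1 (1 of 20 equal classes), the median log2 ratio was -0.14. With the trend in length removed, the log2 ratio of FPKM + 1 was -0.71 for Id1 against -0.85 as deposited, -0.82 for Id2 against -0.89, and -0.16 for Id3 against -0.30.

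The bases in front of Id2 and Id3 are shown because Id2 was called lower and Id3 was not; the window of Id1 is not shown. RefSeq promoter windows of the build GRCm38.p6 were matched for 36 of the 48 genes. The 250 bases before the transcript start are printed 5′ to 3′ on the strand of the gene, for Id2 (chr12:25096093-25096342, minus strand) and Id3 (chr4:136143572-136143821, plus strand). Capitals mark CAGAC, the core that SMAD3 and SMAD4 bind, read on both strands (GTCTG on the other), and GGCGCC, a GC-rich motif bound by BMP SMADs, which reads the same on both strands.
Id2: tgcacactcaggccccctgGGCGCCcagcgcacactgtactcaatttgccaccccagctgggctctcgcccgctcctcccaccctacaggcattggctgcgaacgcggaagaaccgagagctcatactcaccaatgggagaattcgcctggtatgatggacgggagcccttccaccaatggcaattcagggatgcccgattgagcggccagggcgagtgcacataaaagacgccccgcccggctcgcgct
Id3: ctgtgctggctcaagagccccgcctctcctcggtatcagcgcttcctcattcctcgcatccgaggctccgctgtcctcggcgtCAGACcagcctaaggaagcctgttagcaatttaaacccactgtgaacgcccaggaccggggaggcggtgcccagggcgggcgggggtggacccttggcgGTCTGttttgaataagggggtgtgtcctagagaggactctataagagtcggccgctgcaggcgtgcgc
The Id2 window held 1 GGCGCC, which begins 231 bases before the start, and lacked CAGAC. The Id3 window held 2 CAGAC matches, which begin 167 and 68 bases before the start, and no GGCGCC. The motif CAGAC occurred in 42.2% of all 32851 windows of this length and in 40% of those of assessed genes. The motif GGCGCC occurred in 9.59% of all windows and 16.5% of those of assessed genes. Both windows held 18 CG dinucleotides. A match is a run of letters and not evidence of binding.

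**Figure D2:**
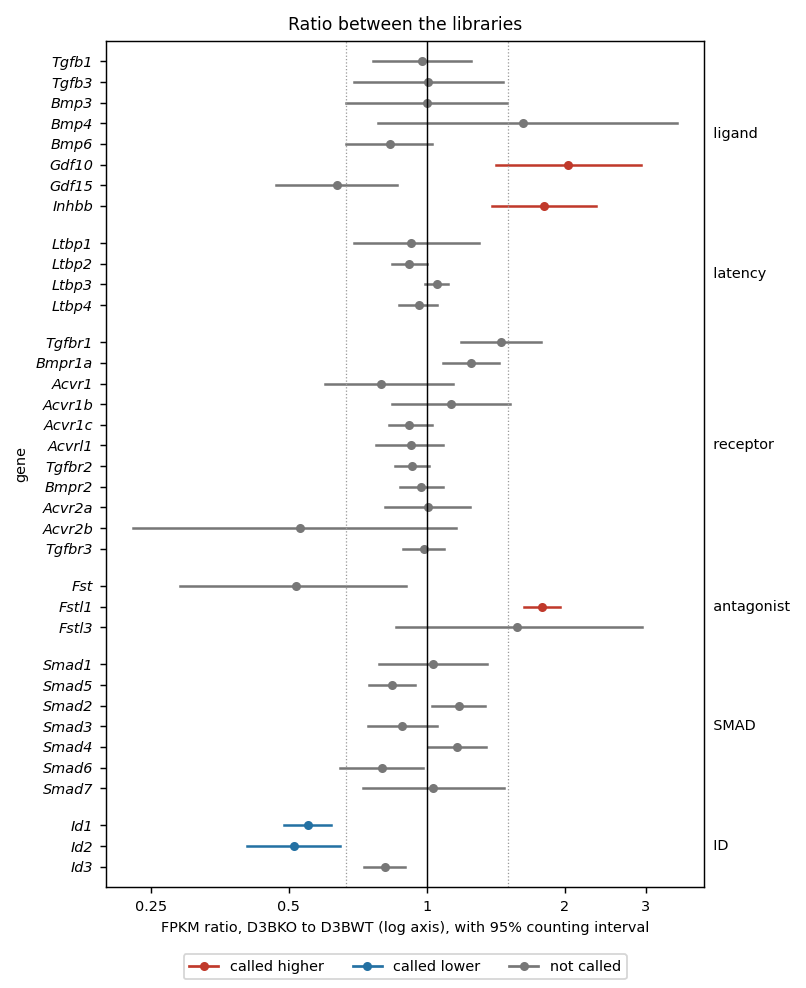
FPKM ratio of the D3BKO to the D3BWT library for the same 36 genes (log axis), with the 95% counting interval as a line. Solid line, a ratio of 1; dotted lines, 1.5-fold in either direction. Id1 and Id2 lie below 1, and Fstl1, Gdf10 and Inhbb above it, with intervals that do not reach 1; the short intervals are those of abundant genes.

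Among the ligands, 2 of 8 assessed genes, Gdf10 and Inhbb, were called higher and none lower, against 4.35% and 3.41% of all assessed genes. Neither was called with a pseudocount of 5 FPKM, which took the log2 ratio of Gdf10 to 0.36 (0.74 with 1 FPKM) and that of Inhbb to 0.32 (0.63 with 1 FPKM). A list of 8 genes is too short for a share to be read from it. Gdf10 (14560), a BMP3-related factor also named BMP3b, was at 3.83 FPKM (99 counts) in D3BKO and 1.89 FPKM (47 counts) in D3BWT, a ratio of 2.03 (1.42 to 2.93). Inhbb (16324), which encodes the subunit of activin B, was at 4.01 FPKM (170 counts) in D3BKO and 2.23 FPKM (91 counts) in D3BWT, a ratio of 1.8 (1.38 to 2.34). The subunit of activin A, Inhba, had 2 counts in D3BKO and none in D3BWT, which is within the 3 counts that a count of 0 allows, so no ratio is given. Activin transcripts in this tissue were therefore almost all those of Inhbb in both libraries. Gdf15 (23886), a stress-induced hormone that acts on the hindbrain, was at 7.23 FPKM (75 counts) in D3BKO and 11.3 FPKM (113 counts) in D3BWT. Its ratio of 0.638 had an interval of 0.469 to 0.861, and its log2 ratio of FPKM + 1, -0.58, lay just short of the 1.5-fold limit. Gdf15 was called lower with a pseudocount of 0.1 FPKM, and with CPM in place of FPKM. Gdf11 had no counts in D3BKO and 3 in D3BWT, so no ratio is given.

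The TGF-beta ligands were alike in both libraries in level and in their proportions. Tgfb1 (21803), the main isoform, was at 6.56 FPKM (135 counts) in D3BKO and 6.73 FPKM (133 counts) in D3BWT, a ratio of 0.975 (0.761 to 1.25). Tgfb3 was at 1.83 FPKM in D3BKO and 1.82 FPKM in D3BWT. Tgfb2, the scarcest isoform, was at 0.25 FPKM (12 counts) in D3BKO and 0.2 FPKM (9 counts) in D3BWT, below the level assessed. Tgfb1 gave 75.9% of the summed level of the 3 isoforms in D3BKO and 76.9% in D3BWT. The interval of Tgfb1 was narrower than that of Tgfb3, 0.695 to 1.47, and neither reached past 1.5-fold.

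Of 7 BMP genes, 3 were assessed and none was called. Bmp6 (12161), the most abundant, was at 6.86 FPKM (163 counts) in D3BKO and 8.27 FPKM (189 counts) in D3BWT, a ratio of 0.83 (0.667 to 1.03). Bmp6 alone gave 59.9% of the summed BMP level in D3BKO and 67.8% in D3BWT. Bmp3, known for opposing other BMPs, was at 1.72 FPKM in both libraries, with 53 counts in D3BKO and 51 in D3BWT. Bmp4, linked to adipocyte commitment, was at 1.12 FPKM (22 counts) in D3BKO and 0.69 FPKM (13 counts) in D3BWT, and its ratio of 1.62 had a wide interval of 0.783 to 3.51. Bmp2 was lower still, at 0.59 FPKM (21 counts) in D3BKO and 0.35 FPKM (12 counts) in D3BWT, with an interval of 0.789 to 3.75. Neither of these was detectably different at this depth. Bmp7 and Bmp8b, known for promoting brown fat formation and heat production, were scarce. Bmp7 had 4 counts in D3BKO and 3 in D3BWT, and Bmp8b had 17 counts in each (0.58 FPKM in D3BKO and 0.61 FPKM in D3BWT). Bmp5 had 12 counts in D3BKO and 11 in D3BWT.

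Latent TGF-beta binding proteins are matrix proteins; Ltbp1, Ltbp3 and Ltbp4 hold TGF-beta in its latent form, whereas Ltbp2 does not bind it. All 4 were assessed, none was called, and their log2 ratios lay between -0.12 and 0.07. Ltbp3 (16998), the third most abundant of the 48 genes, was at 47.5 FPKM (2472 counts) in D3BKO and 45.2 FPKM (2261 counts) in D3BWT. Its ratio of 1.05 had a narrow interval of 0.991 to 1.11, so counting error leaves no room for a 1.5-fold difference between these libraries. Ltbp4 was at 17 FPKM in D3BKO and 17.7 FPKM in D3BWT, with a ratio of 0.959 (0.871 to 1.05). Ltbp2 was at 14.8 FPKM in D3BKO and 16.1 FPKM in D3BWT, a ratio of 0.916. Ltbp1 was scarce, at 1.22 FPKM in D3BKO and 1.32 FPKM in D3BWT. Their summed level was 80.4 FPKM in both libraries.

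None of the 11 assessed receptor genes was called, against 4.35% called higher and 3.41% lower over all assessed genes. A list of 11 genes is too short to tell this from those shares. Among type I receptors the highest in D3BKO was Bmpr1a (12166), the BMP receptor ALK3, at 8.65 FPKM (474 counts) against 6.93 FPKM (365 counts) in D3BWT, a ratio of 1.25 (1.09 to 1.43). Tgfbr1 (21812), the type I receptor of TGF-beta, was at 4.44 FPKM (255 counts) in D3BKO and 3.07 FPKM (169 counts) in D3BWT. Its ratio of 1.45 (1.19 to 1.77) was the largest upward difference of an assessed receptor and lay below the call. Acvr1c (269275), the receptor ALK7 that is typical of adipocytes and answers activin B, was at 7.53 FPKM (673 counts) in D3BKO and 8.24 FPKM (702 counts) in D3BWT, a ratio of 0.914 (0.827 to 1.02). Acvrl1, the receptor ALK1 of endothelial cells, was at 7.72 FPKM in D3BKO and 8.38 FPKM in D3BWT, a ratio of 0.921 (0.775 to 1.09). Of the 8 endothelial markers 5 were not called, with ratios between 0.661 for Tek and 1.07 for Flt1. Unlike that of Acvrl1, the intervals of Tek (0.572 to 0.76) and Cdh5 (0.743 to 0.868) excluded 1. The interval lay wholly below 1 for 5 of the 8 markers, against 22.4% of all assessed genes. Acvr1 was at 2.6 FPKM in D3BKO and 3.28 FPKM in D3BWT, and Acvr1b at 3.14 FPKM in D3BKO and 2.78 FPKM in D3BWT, both with intervals that included 1. Bmpr1b, below the level assessed, had 1 count in D3BKO and 11 in D3BWT, and its ratio of 0.0909 had an interval of 0.00203 to 0.601.

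None of the 4 type II receptors was called. Tgfbr2 (21813), the receptor that first binds TGF-beta, was the most abundant receptor at 23 FPKM (1090 counts) in D3BKO and 24.8 FPKM (1127 counts) in D3BWT, a ratio of 0.929 (0.854 to 1.01). Tgfbr2 exceeded its partner Tgfbr1 in both libraries. Bmpr2 was at 6.09 FPKM in D3BKO and 6.26 FPKM in D3BWT, a ratio of 0.973 (0.872 to 1.08). Acvr2a, an activin receptor, was at 3.2 FPKM in D3BKO and 3.19 FPKM in D3BWT. Acvr2b rested on 11 counts in D3BKO and 20 in D3BWT, and its interval of 0.229 to 1.16 included 1. Tgfbr3, the coreceptor betaglycan, was at 12.1 FPKM (737 counts) in D3BKO and 12.3 FPKM (720 counts) in D3BWT, a ratio of 0.983 (0.886 to 1.09).

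Among the secreted antagonists, Fstl1 stood out. Fstl1 (14314) encodes a follistatin-like glycoprotein of stromal cells that is known to bind BMP4. It was at 38.1 FPKM (1366 counts) in D3BKO and 21.4 FPKM (737 counts) in D3BWT, a ratio of 1.78 (1.63 to 1.95). Fstl1 had the largest log2 ratio of FPKM + 1 of the 36 genes, 0.80, and made up 91.6% of the summed antagonist level in D3BKO and 86.3% in D3BWT. Fst (14313), follistatin, which captures activins, lay on the other side at 0.91 FPKM (21 counts) in D3BKO and 1.76 FPKM (39 counts) in D3BWT. Its ratio of 0.517 (0.289 to 0.901) excluded 1, but the log2 ratio of -0.53 did not reach the call; it did with a pseudocount of 0.1 FPKM and with CPM. Fstl3, a second activin-binding protein, was at 1.62 FPKM (31 counts) in D3BKO and 1.03 FPKM (19 counts) in D3BWT, with an interval of 0.857 to 2.93. The BMP antagonists proper were scarce: Chrd had 19 counts in D3BKO and 15 in D3BWT, Nog had 7 in D3BKO and 2 in D3BWT, and Grem1 was listed in neither library.

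Markers of fibroblasts and macrophages moved with the 3 genes called higher, whereas pericyte and smooth muscle markers were split. Of 8 fibroblast and preadipocyte markers 2 were called higher and none lower, against 4.35% and 3.41% of all assessed genes. Their summed level was 419 FPKM in D3BKO and 273 FPKM in D3BWT. Dpt alone gave 179 FPKM of it in D3BKO and 80.7 FPKM in D3BWT, while Pi16 had a ratio of 0.993. Of 8 macrophage markers 5 were called higher and none lower, with a sum of 452 FPKM in D3BKO and 295 FPKM in D3BWT. Lyz2 alone gave 309 FPKM of that sum in D3BKO and 194 FPKM in D3BWT. Of 7 assessed pericyte and smooth muscle markers 1 was called higher and none lower. The interval lay wholly above 1 for 4 of them and wholly below 1 for 3. The sum of that list was 153 FPKM in D3BKO and 151 FPKM in D3BWT. Pdgfra, which defines the stromal lineage, was at 4.19 FPKM in D3BKO and 3.31 FPKM in D3BWT, below the call. These marker lists too were chosen with earlier results of these data known, and their shares are no independent check. The part of these cells in the higher Fstl1, Gdf10 and Inhbb levels was not tested.

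The bases before the 3 higher genes are shown beside those of Id2 and Id3, since these genes were called in the opposite direction to Id2. The windows lie at chr16:37776805-37777054, plus strand (Fstl1), chr14:33923337-33923586, plus strand (Gdf10) and chr1:119422249-119422498, minus strand (Inhbb), with the same marks in capitals.
Fstl1: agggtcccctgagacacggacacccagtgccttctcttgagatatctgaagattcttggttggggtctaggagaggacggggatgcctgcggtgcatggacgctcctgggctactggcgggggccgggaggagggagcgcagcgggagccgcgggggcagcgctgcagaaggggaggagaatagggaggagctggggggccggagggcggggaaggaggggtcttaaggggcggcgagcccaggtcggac
Gdf10: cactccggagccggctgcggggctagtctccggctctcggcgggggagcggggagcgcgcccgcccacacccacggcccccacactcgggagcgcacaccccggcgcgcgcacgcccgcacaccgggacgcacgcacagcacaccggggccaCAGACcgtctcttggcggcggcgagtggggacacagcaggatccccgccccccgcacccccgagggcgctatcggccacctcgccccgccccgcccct
Inhbb: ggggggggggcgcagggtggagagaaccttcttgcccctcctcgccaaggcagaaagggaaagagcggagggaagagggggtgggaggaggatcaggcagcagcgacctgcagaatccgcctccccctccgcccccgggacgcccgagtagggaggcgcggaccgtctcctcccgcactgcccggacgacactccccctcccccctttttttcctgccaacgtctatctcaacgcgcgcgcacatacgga
The Gdf10 window held 1 CAGAC, which begins 98 bases before the start, and the other two windows held neither motif. The Gdf10 window was rich in CG, with 35 CG dinucleotides and a G + C content of 78.8%, against 21 CG dinucleotides for Inhbb and 16 for Fstl1. Over the windows of the assessed genes of the group the median ratio of observed to expected CG was 0.735, against 0.722 over the windows of all assessed genes. So by this measure the group's windows lay close to those of other expressed genes. Their median CG count was 22, against 16 over the windows of all assessed genes.

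None of the 7 assessed SMAD genes, whose proteins carry the signal to the nucleus, was called. Over all assessed genes 4.35% were called higher and 3.41% lower, and 7 genes are too few to tell apart from those shares. Smad5 (17129), the most abundant BMP SMAD, was at 8.5 FPKM (561 counts) in D3BKO and 10.2 FPKM (643 counts) in D3BWT, a ratio of 0.837 (0.747 to 0.94). Smad1 was at 3.73 FPKM (116 counts) in D3BKO and 3.62 FPKM (108 counts) in D3BWT, a ratio of 1.03 (0.787 to 1.35). Smad9 was almost absent, with 9 counts in D3BKO and 8 in D3BWT. Smad5 thus gave 68.5% of the BMP SMAD level in D3BKO and 72.9% in D3BWT. For the TGF-beta SMADs, Smad2 was at 5.6 FPKM in D3BKO and 4.77 FPKM in D3BWT, a ratio of 1.17 (1.03 to 1.34). Smad3 was at 4.99 FPKM in D3BKO and 5.65 FPKM in D3BWT, a ratio of 0.883 (0.742 to 1.05). Their summed level was 10.6 FPKM in D3BKO and 10.4 FPKM in D3BWT, with Smad2 the higher of the pair in D3BKO and Smad3 in D3BWT. Smad4, the shared partner, was the most abundant SMAD at 12.4 FPKM (413 counts) in D3BKO and 10.6 FPKM (341 counts) in D3BWT, a ratio of 1.16 (1.01 to 1.35). Smad6 (17130), an inhibitory SMAD that is itself a BMP target, was at 5.84 FPKM (172 counts) in D3BKO and 7.32 FPKM (207 counts) in D3BWT, a ratio of 0.798 (0.648 to 0.981). Smad7, the inhibitor induced by TGF-beta, was at 1.58 FPKM (70 counts) in D3BKO and 1.53 FPKM (65 counts) in D3BWT, a ratio of 1.03 (0.727 to 1.47).

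**Figure D3:**
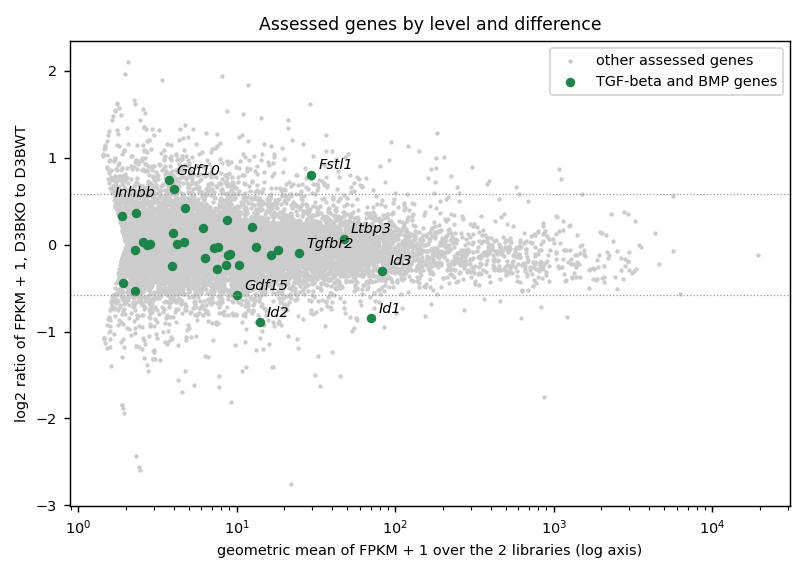
All 11746 assessed genes by the geometric mean of FPKM + 1 over the libraries (log axis) and the log2 ratio of FPKM + 1, D3BKO to D3BWT, with the 36 TGF-beta and BMP genes in green and dotted lines at 1.5-fold. Id1 at -0.85 and Id2 at -0.89 lie below the lower dotted line, and Fstl1 at 0.80, Gdf10 at 0.74 and Inhbb at 0.63 above the upper one.

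Other genes of the pathways were counted from lists, again with 4.35% of all genes higher and 3.41% lower as the background. These lists were chosen with earlier results of these data known. Their shares and medians therefore describe the chosen genes and are no independent check. TGF-beta target genes in the list were often higher, but not all. Of 22 assessed, 9 were called higher and none lower, and their median log2 ratio was 0.48 against -0.03 over all genes. The log2 ratio was below 0 for 5 of the 22. The counting interval lay wholly above 1 for 15 and wholly below 1 for 3. Among those not called, Postn had a ratio of 0.787 (0.729 to 0.855), Skil 0.903 (0.789 to 1.04) and Pmepa1 1.08 (1.03 to 1.13). Ccn2, a matricellular protein also named CTGF, was at 13.8 FPKM (329 counts) in D3BKO and 4.1 FPKM (94 counts) in D3BWT, a ratio of 3.36 (2.66 to 4.27). Timp1, an inhibitor of matrix proteases, was at 7.37 FPKM (63 counts) in D3BKO and 2.32 FPKM (19 counts) in D3BWT, a ratio of 3.18 (1.88 to 5.63). Cdkn2b, a cell cycle inhibitor induced by TGF-beta in epithelial cells, was at 3.26 FPKM (44 counts) in D3BKO and 0.85 FPKM (11 counts) in D3BWT, a ratio of 3.84 (1.95 to 8.25). Fn1, fibronectin, had a ratio of 2.96 (2.68 to 3.23). These genes are known to answer many signals besides TGF-beta. A further 4 of the called genes, named after their values were seen, were Acta2, Col1a1, Col1a2 and Col3a1, with ratios between 1.51 and 2.1. The macrophage and fibroblast marker sums given above moved with the higher target genes; their part was not tested.

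A list of further BMP targets, which left out Id1, Id2, Id3 and Smad6, showed no common direction. Of 6 assessed in that list, 1 was called higher and 1 lower, and the median log2 ratio was -0.01. Smad6, given above, had a ratio of 0.798 (0.648 to 0.981). Hes1, a repressor that also answers Notch, was at 4.43 FPKM (64 counts) in D3BKO and 9.22 FPKM (128 counts) in D3BWT, a ratio of 0.48 (0.35 to 0.653). Tmem100, an endothelial membrane protein induced through ALK1, was at 2.44 FPKM (42 counts) in D3BKO and 1.21 FPKM (20 counts) in D3BWT, a ratio of 2.02 (1.16 to 3.62). Id4, the fourth ID gene, was scarce at 11 counts in D3BKO and 8 in D3BWT.

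Extracellular modulators of the pathways included further higher genes. Of 9 assessed antagonists and modulators 2 were called higher and none lower. Chrdl1, a chordin-like BMP antagonist, was at 2.9 FPKM (120 counts) in D3BKO and 1.26 FPKM (50 counts) in D3BWT, a ratio of 2.3 (1.64 to 3.27). Bgn, biglycan, a matrix proteoglycan that binds TGF-beta, was at 75.6 FPKM in D3BKO and 44.4 FPKM in D3BWT, a ratio of 1.7 (1.57 to 1.84). Of 6 activators and proteases 2 were called higher and none lower. The interval lay wholly above 1 for 3 of the 6 and wholly below 1 for 1, Furin, with a ratio of 0.815 (0.738 to 0.896). Plat, tissue plasminogen activator, was at 5.24 FPKM (132 counts) in D3BKO and 2.69 FPKM (65 counts) in D3BWT, a ratio of 1.95 (1.44 to 2.67). Thbs1, thrombospondin 1, which can activate latent TGF-beta, was at 10.9 FPKM in D3BKO and 6.89 FPKM in D3BWT, a ratio of 1.58 (1.39 to 1.8).

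None of the 21 SMAD regulators, which include ubiquitin ligases, deubiquitinases and corepressors, was called, and their log2 ratios lay between -0.29 and 0.50. Their median log2 ratio was 0.11 against -0.03 over all assessed genes, and the counting interval lay wholly above 1 for 10 of them, against 18.1% of all assessed genes, and wholly below 1 for 1, against 22.4%. None of the 7 further receptors and coreceptors was called either. The interval lay wholly above 1 for 1 of them, Vasn, with a ratio of 1.54 (1.29 to 1.84). It lay wholly below 1 for 2, Rgma at 0.662 (0.512 to 0.849) and Lrrc32 at 0.764 (0.6 to 0.969). Of 18 further ligands 1 reached the level assessed, Gdf5, at 4.38 FPKM in D3BKO and 6.93 FPKM in D3BWT. Its ratio of 0.632 (0.486 to 0.818) excluded 1, but its log2 ratio of FPKM + 1, -0.56, lay just short of the call.

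**Figure D4:**
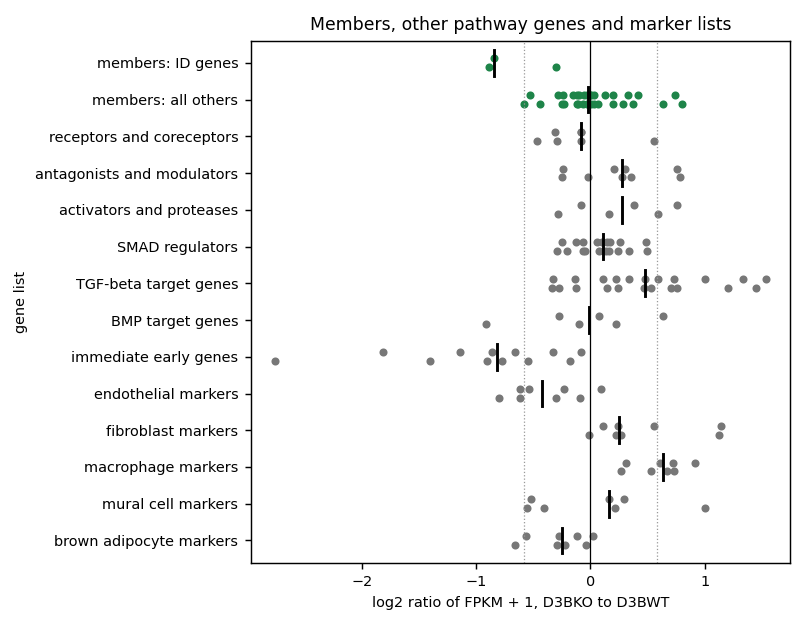
Log2 ratio of FPKM + 1, D3BKO to D3BWT, for the assessed genes of each list, 1 point per gene and a black bar at the list median; green points are the 36 genes of the group, split into ID genes and all others, and dotted lines mark 1.5-fold. Macrophage markers (median 0.64) and TGF-beta target genes (median 0.48) lie to the right. ID genes (median -0.85), immediate early genes (median -0.82) and endothelial markers (median -0.42) lie to the left. The lists were chosen with earlier results of these data known.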

How the data were processed

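Per the file headers, each deposited table has a row for every listed Entrez gene with its transcripts, their length, an expected count and FPKM. RSEM and the build mm9 are named in the submitters' processing notes; neither aligner nor strand handling is stated in the labels. Expected counts, as deposited, are estimates in which a read matching several genes is shared out; for all 48 genes they were whole to within 0.05 in both libraries. Deposited FPKM values carry 2 decimals. Genes absent from a table were treated as 0. Symbols were looked up by Entrez identifier in RefSeq (GRCm38.p6). Log2 ratios used FPKM + 1, and intervals for the ratio came from the exact binomial (Clopper-Pearson) interval of the rounded expected counts, scaled by library totals (SciPy 1.17.1, Python 3.11.15). For 5 of the genes the deposited length differed between libraries, so FPKM and count ratios differ slightly. The calculation was tested on simulated counts with counting error only and planted 2-fold changes. That test holds no variation between animals or in handling, so it does not show how often such variation gives a call. Genes and lists were chosen with earlier results of these data known. All 48 genes are reported; from each further pathway list up to 4 called genes with the largest absolute log2 ratio are named; 1 called TGF-beta target gene is counted but not reported here by name. Alternatives changed the pseudocount, level filter, fold, interval condition, scaling, unit (CPM), length trend and genes with shared reads.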

Additional observations from a re-analysis of the deposited data

How the results depend on the processing

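No paired analysis was possible because each genotype had 1 library, and for the same reason no library could be left out. The 3 higher genes became 1 (Fstl1) with a pseudocount of 5 FPKM or a mean of at least 5 FPKM, and 0 at 2-fold. The 2 lower genes became 4 (Id1, Id2, Gdf15 and Fst) with a pseudocount of 0.1 FPKM or with CPM in place of FPKM, and 0 at 2-fold. Under the other settings the same 3 and 2 genes were called. Over all settings that change the ratio, that of Fstl1 lay between 0.71 and 0.89 (log2), Gdf10 between 0.36 and 0.98, Inhbb between 0.32 and 0.82, Id1 between -0.86 and -0.71 and Id2 between -0.95 and -0.69.

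The median log2 ratio of the assessed genes of the group was near 0 (-0.033 as deposited). It rose above 0 only when the FPKM totals were set equal, and it also moved with the level filter. It was -0.022 with a pseudocount of 5 FPKM, 0 with no filter, -0.11 with a mean of at least 5 FPKM, -0.0072 with the median of all genes set to 0, 0.043 with the same FPKM total, 0.0446 with that total taken without the top 20 genes, and -0.0645 with the length trend removed. The same FPKM total raised the D3BKO values by 0.09 (log2). Low counts limit the 12 genes under 1 FPKM.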
